A study of Mus musculus with 9 samples.

Results

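The pooled genotype difference compared all 6 libraries of Rag1-/- mice with the 3 libraries of wild type (WT) mice, which together were all 9 libraries of the series. Members were chosen by genotype alone: 3 Rag1-/- libraries came from mice given vehicle and 3 from mice given extracellular vesicles (EVs, small membrane particles shed by cells) from the blood of WT mice, and both were counted as Rag1-/-. Each library held RNA of the dissected prefrontal cortex, and the study asked how gene expression there differs in immunodeficient mice and whether circulating EVs alter it. A difference between vesicle and vehicle libraries therefore counted as spread within the genotype in the pooled test. The values of both subgroups are given for many, not all, of the gene groups and genes where they diverged.

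The mice were males on a C57BL/6 background, aged 8 to 12 weeks. The Rag1-/- mice carried the knockout in the germline, so no brain-specific or timed loss was measured. They received vehicle or WT EVs intravenously, and brains were taken after perfusion with phosphate-buffered saline. The WT libraries were labelled as medium in their titles, while their treatment field listed none, so it is not settled whether WT mice were injected. No label states that each library was 1 mouse. P-values therefore measured the spread between these libraries, which may in part be technical.

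Rag1 encodes the catalytic subunit of the V(D)J recombinase, which cuts immunoglobulin and T cell receptor genes at recombination signals so that developing lymphocytes can join new antigen receptors. Mice without it make no mature T or B cells, while their innate immune cells remain. The prefrontal cortex is a layered tissue of excitatory pyramidal neurons, inhibitory interneurons, glia and vessels, covered by the meninges, and Rag1 RNA has long been known at low levels in neurons.

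Markers of the labelled tissue were present in all 9 libraries: the cortical excitatory genes Slc17a7 and Tbr1 lay at 921 to 1371 and 105 to 161 CPM (normalised read counts of a gene per 1000000 reads of the library), while the striatal receptor Drd2 lay at 0.391 to 2.02. The libraries held 32 to 41.2 M reads assigned to genes, M being 1000000. WT replicate 6 stood apart: 30.1% of its uniquely aligned reads fell outside every annotated exon, against 10.9% in WT replicate 1, 8.11% in WT replicate 3 and between 6.54% and 11.2% in the 6 Rag1-/- libraries (median 7.31%). The mean difference between genotypes was -8.48 percentage points (exact permutation test, two-sided, p = 0.119), and -1.60 points without WT replicate 6 (p = 0.357). On the first principal component, which carried 59.9% of the variance, WT replicate 6 lay at -80.8, the other WT libraries at -14.4 and 7.86, the vehicle libraries between 23.9 and 25.4, and the EV libraries at 12.3, 8.20 and -7.03. The part of this share in the genotype difference was not tested beyond fits without that library and with the share as a covariate, given below for the gene groups and for the genes they moved most.

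Rag1 itself, the gene named in the genotype, was the only gene that passed the pooled test, and its RNA was higher in the Rag1-/- libraries. Rag1 (ENSMUSG00000061311.6; chromosome 2, 101638282 to 101649501, minus strand, GRCm38) read 1.09, 0.842 and 0.232 CPM in the WT libraries (replicates 1, 3 and 6, the order kept throughout), which were 37, 32 and 9 reads. In the Rag1-/- libraries it lay between 6.26 and 7.82 CPM with a median of 6.95, from 192 to 291 reads. The lowest Rag1-/- library was thus above the highest WT library. The difference was 3.29 on the log2 scale (SE 0.318), with an adjusted p of 0.00413 in edgeR's quasi-likelihood test, and 2.86 without WT replicate 6. Vehicle libraries (7.82, 7.04 and 6.85 CPM) and EV libraries (6.80, 7.32 and 6.26 CPM) overlapped, and the EV minus vehicle difference of -0.09 did not pass (adjusted p = 0.871). Reads were counted over the whole gene, so the counts do not show which stretch of the transcript was read or what the modified allele encodes. The libraries are named as labelled throughout, and every direction is between libraries so labelled. An exchange of labels, which would turn every direction, was not tested, and the T cell markers Cd3d and Cd3e held too few reads to serve as another check.

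Because Rag1 was the only gene called, 300 reference bases at its promoter are shown, from 250 bases before to 50 after the start used for this window (RefSeq, GRCm38.p6, chr2:101649483-101649782, minus strand, printed 5′ to 3′). The coordinates given above put the start of Rag1 at 101649501, which is inside the window but downstream of the start used for it.
Rag1: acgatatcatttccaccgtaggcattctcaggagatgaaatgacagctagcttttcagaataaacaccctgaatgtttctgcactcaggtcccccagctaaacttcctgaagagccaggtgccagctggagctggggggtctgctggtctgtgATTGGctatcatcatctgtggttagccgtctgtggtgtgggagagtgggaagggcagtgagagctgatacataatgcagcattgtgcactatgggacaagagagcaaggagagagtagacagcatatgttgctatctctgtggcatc
The capitals mark the only match to the 3 motifs searched, on both strands. The match is to the motif CCAAT, read on the opposite strand from base 154, which is 97 bases before the start used for the window. Of 32851 promoters of the same length, 37.41% held that motif on either strand. The TATA box motif TATAAA had no match in this window and was found in 13.62% of promoters. The GC box motif GGGCGG had none here either, with 35.66% of promoters holding it. A match describes the letters of this window and is no evidence of a bound factor.

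**Figure D1:**
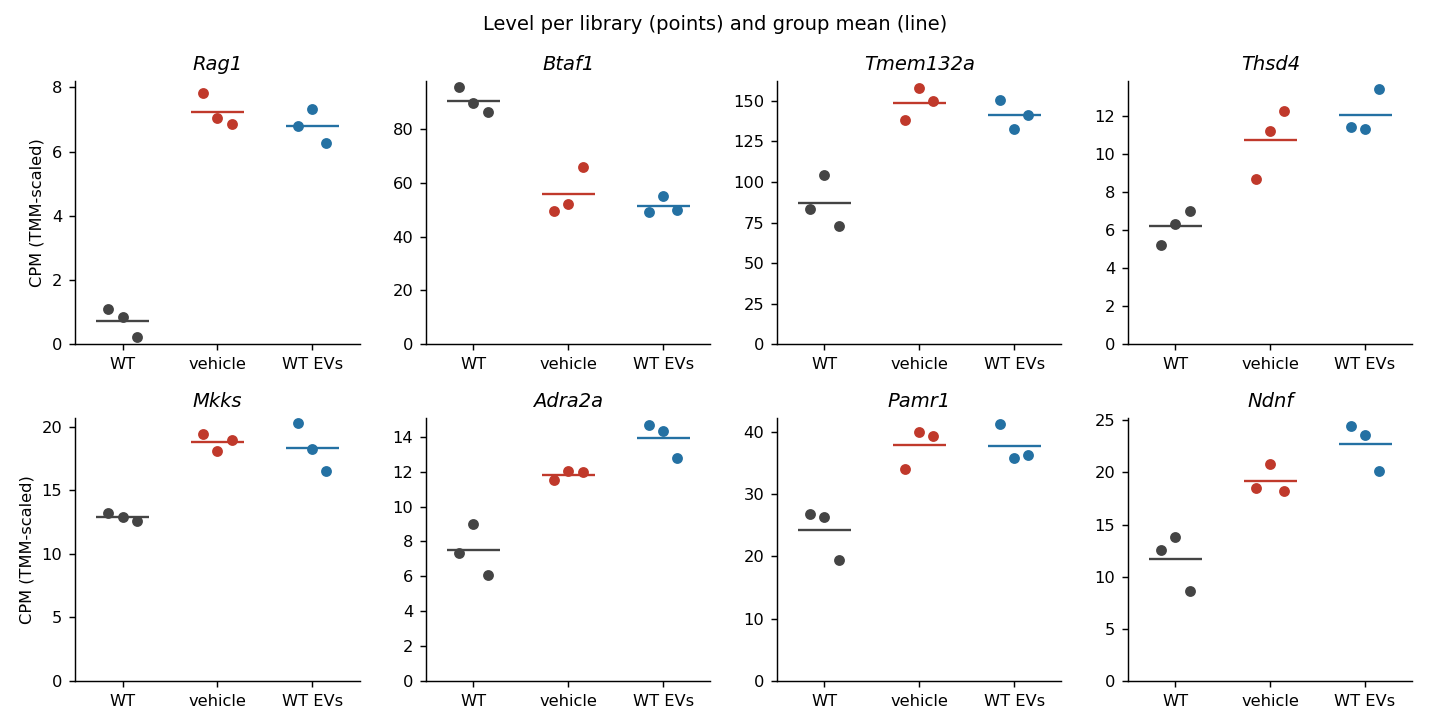
Normalised expression (CPM, y axis) of Rag1 and 7 further protein-coding genes in each WT, Rag1-/- vehicle and Rag1-/- EV library; points are libraries and lines are group means. The 6 Rag1-/- libraries lay above all WT libraries for every gene shown except Btaf1, where they lay below.

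Across the transcriptome, 1 of 17948 genes tested (0.00557%) passed an adjusted p of 0.05 in edgeR. The next gene, Btaf1, had an adjusted p of 0.062, and a threshold of 0.1, chosen after this count was seen, took in 477 genes (2.66%), of which 130 were higher and 347 lower in Rag1-/-. At an unadjusted p under 0.05 there were 4136 genes, 1737 higher and 2399 lower. DESeq2 called 1186 genes (6.61%) with all libraries, 454 higher and 732 lower, but 29 genes (0.162%) without WT replicate 6, 20 higher and 9 lower. Without WT replicate 6 edgeR still called 1 gene, with 1430 at an unadjusted p under 0.05, while without WT replicate 3 it called 3062. The number of genes called thus rested on which libraries and which tool were used. Below, only Rag1 is said to have changed, and other genes are described by their values and by whether the genotypes overlapped.

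All 6 Rag1-/- libraries lay above all 3 WT libraries for 614 genes (3.42%) and below them for 652 (3.63%), 7.05% together. Of these 1266 genes, 364 differed by over 1.5-fold and 204 by over 2-fold. A subset of 510 also had an unadjusted p under 0.05 both without WT replicate 6 and with that outside-exon share as a covariate, 287 above and 223 below. These values set the background for each gene group that follows. For list members with an unadjusted p under 0.05, the background is the 4136 of 17948 genes, 1737 higher and 2399 lower.

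The protein-coding genes with the smallest p after Rag1 encoded a transcription regulator, membrane receptors, and proteins of the extracellular matrix and of protein folding. Btaf1 (chromosome 19, 36926079 to 37012752), which strips the TATA-binding protein from DNA, stood at 95.6, 89.7 and 86.2 CPM in WT and between 49.3 and 65.7 in Rag1-/- (median 51). Its difference was -0.75 on the log2 scale (SE 0.1; edgeR adjusted p = 0.062), and -0.79 without WT replicate 6. The groups were far apart relative to the spread within WT, and 1 vehicle library lay nearest to WT. Tmem132a, a membrane protein gene (chromosome 19, 10857822 to 10869940), stood at 83.2, 105 and 72.6 CPM in WT and between 133 and 158 in Rag1-/- (median 146), a difference of 0.74 (SE 0.116; edgeR adjusted p = 0.0969). Other genes share 33.9% of its exon bases, so part of its reads may be theirs.

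Among further genes above WT, Adra2a encodes the alpha-2A adrenergic receptor, through which noradrenaline acts on prefrontal neurons. It stood at 7.36, 9.02 and 6.10 CPM in WT and between 11.5 and 14.7 in Rag1-/- (median 12.4), a log2 difference of 0.78, or 0.65 without WT replicate 6. Ndnf, a secreted factor that marks layer 1 interneurons, stood at 12.5, 13.8 and 8.59 CPM in WT and between 18.3 and 24.5 in Rag1-/- (median 20.4). Thsd4, a matrix protein of microfibrils, stood at 5.24, 6.34 and 7.02 CPM in WT and between 8.70 and 13.4 in Rag1-/- (median 11.4), a log2 difference of 0.88 that was 0.97 without WT replicate 6. None of these 3 genes passed edgeR at 0.05, DESeq2 called all of them with all libraries and without WT replicate 6, and in none did the groups overlap. Mkks, a chaperonin-like protein needed to assemble the BBSome of cilia, had a narrow WT range of 12.6 to 13.2 CPM and lay between 16.5 and 20.3 in Rag1-/-. For Mib2, a ubiquitin ligase of Notch ligands, the log2 difference was 0.43, and 0.39 without WT replicate 6. Pamr1, which lies on chromosome 2 close to Rag1, is taken up with the genes of that region.

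The genes below WT with the smallest p had roles in respiration, folding and signalling. Ndufs4, a subunit of respiratory complex I, stood at 57.9, 47.1 and 66.2 CPM in WT and between 35.4 and 42.3 in Rag1-/- (median 38.9), a log2 difference of -0.55 that was -0.43 without WT replicate 6. Pfdn5, a subunit of the prefoldin co-chaperone, stood at 102, 86.2 and 111 CPM in WT and between 57.1 and 77 in Rag1-/- (median 67.1). Crem, a transcription factor of cyclic AMP signalling, stood at 21.1, 21.8 and 26.3 CPM in WT and between 15.9 and 17.5 in Rag1-/-. The groups did not overlap for these genes, although for each the WT libraries were spread more widely than the gap between the groups. Cldn10, a claudin, Mrpl14, of the mitochondrial ribosome, and Rap1b, a small GTPase, had log2 differences of -0.53, -0.52 and -0.44. Lrtm1 was different in kind: its difference of -3.26 rested on WT replicate 6 (7.87 CPM, against 1.24 and 0.50 in the other WT libraries), became -1.37 without it, and its genotypes overlapped.

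The kind of gene moved with the share of reads outside exons. The 14496 protein-coding genes had a median log2 difference of 0.04, with 586 above and 483 below all WT libraries, against a median of -0.01 over all genes tested. The 902 unspliced loci of the annotation's class TEC, models still awaiting experimental proof, had a median of -2.04, with 3 above and 63 below, and it was -0.62 without WT replicate 6 and -0.21 with the share as a covariate. Antisense genes, 648 in number, had a median of -0.53, which became -0.17 without that library. Sense-intronic genes, 88 in number, had a median of -1.82, and -0.57 without it. The median TEC level was 2.62 CPM in WT replicate 6, 0.618 and 0.342 in the other WT libraries, 0.188 to 0.213 in the vehicle libraries and 0.293 to 0.554 in the EV libraries. DESeq2 called 302 TEC loci lower and 1 higher with all libraries. Reads were counted without regard to strand, so reads of an antisense gene and of its partner cannot be told apart.

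**Figure D2:**
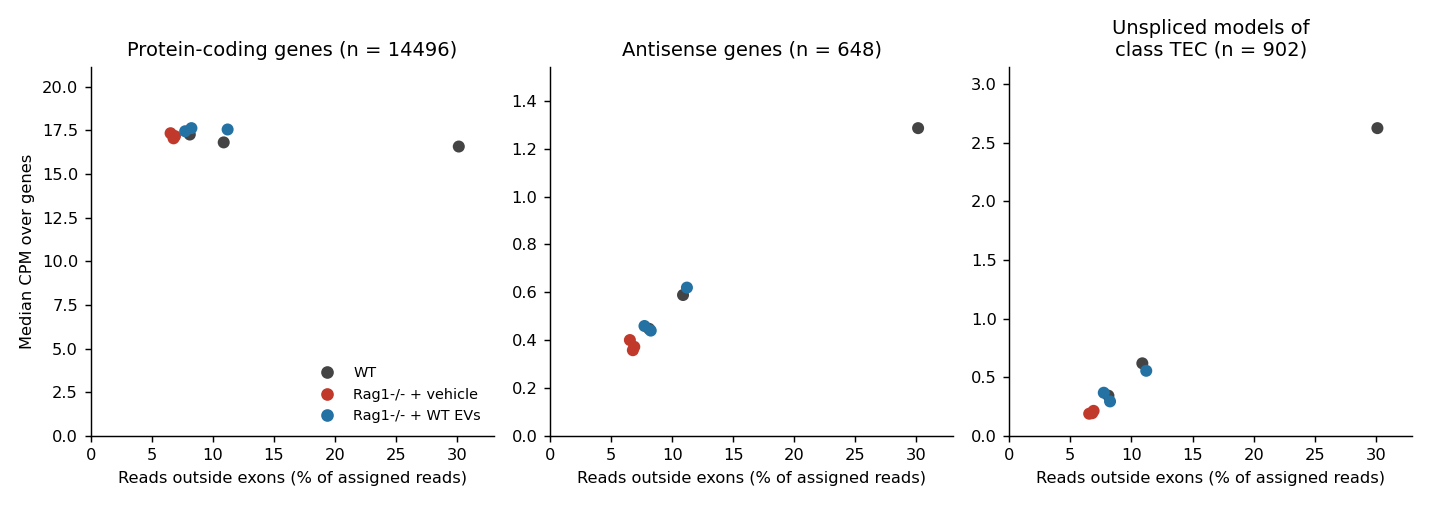
Median CPM of protein-coding, antisense and TEC genes (y axis) against the share of each library's reads outside exons (x axis, percent); each point is a library. WT replicate 6, at 30.1%, had the highest median for TEC genes at 2.62 CPM.

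The recombinase and lymphocyte genes, which the knockout concerns most directly, showed little difference apart from Rag1, and several lymphocyte markers held few or no reads in either genotype. Of 14 tested genes of V(D)J recombination and end joining, Rag1 alone was separated or had an unadjusted p under 0.05, and the list's median log2 difference was 0.04. Rag2, the partner subunit, held 1, 2 and 4 reads in WT and 0 to 6 in Rag1-/- and was too low to test. Of 27 lymphocyte genes 10 were tested, 1 was above and 1 below WT, 5 held no read in any Rag1-/- library and 3 of these held none in any library at all. The T cell marker Cd3d was at 0 in all 9 libraries and Cd3e had 0 to 4 reads. So few reads do not show a difference at this depth. In bulk tissue, fewer cells of a type and less RNA per cell cannot be told apart.

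The lymphocyte genes with more reads ran in either direction. Cd4, which microglia also express, stood at 0.383, 0.368 and 0.0772 CPM in WT and between 0.582 and 0.938 in Rag1-/- (median 0.75), above all WT libraries, with a log2 difference of 1.43 that was 0.99 without WT replicate 6. Ighm, the constant region of immunoglobulin mu, stood at 20.4, 19.3 and 26.6 CPM in WT and between 16.2 and 24 in Rag1-/-, so the genotypes overlapped. Summed over the list the level was 35.5 to 44.2 CPM in WT and 34.7 to 42.3 in Rag1-/-. Most of that sum came from Ighm and from Trbc2, a T cell receptor gene, at 7.60 to 10.7 CPM in WT and 7.95 to 12.3 in Rag1-/-. The overlap of the sums therefore says little about the members with few reads.

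Markers of meningeal fibroblasts, the matrix-producing cells of the coverings of the brain, had the highest median of all 41 lists. Of 22 tested members, all 22 had a positive difference, 11 lay above all WT libraries and none below, and the median was 1.02 on the log2 scale, against -0.01 over all genes. No member passed edgeR at 0.05, 18 had an unadjusted p under 0.05, all higher, and DESeq2 called 14 higher, but 1, Islr, without WT replicate 6. The summed level was 464, 608 and 323 CPM in WT and between 645 and 1544 in Rag1-/- (median 861), with vehicle libraries at 645 to 772 and EV libraries at 949 to 1544. By this sum every Rag1-/- library lay above every WT library, the EV libraries by most. In WT most of the sum came from 1 gene, Ptgds, described below, so the sum tells less about the other members. The median was 0.84 without WT replicate 6 and 1.04 with the outside-exon share as a covariate. Against the same 3 WT libraries it was 0.52 for vehicle and 1.44 for EV libraries, and 4 members were higher in EV than in vehicle libraries in edgeR. How much of the meninges each dissection held is not given in the labels, and its part in the difference was not tested.

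Fmod, a proteoglycan that binds collagen fibrils, stood at 7.83, 9.79 and 5.89 CPM in WT and between 13.1 and 39.5 in Rag1-/- (median 19.1), a log2 difference of 1.56, or 1.38 without WT replicate 6. Islr, a secreted protein of mesenchymal cells, stood at 6.77, 9.58 and 5.48 CPM in WT and between 10.8 and 27.3 in Rag1-/- (median 17.4), a log2 difference of 1.32. Both were spread widely among the Rag1-/- libraries and still lay above WT. Members chosen after their values were seen include the most abundant, Ptgds, which makes prostaglandin D2. Ptgds stood at 300, 385 and 199 CPM in WT and between 394 and 1093 in Rag1-/-, and its EV minus vehicle difference of 1.02 passed (edgeR adjusted p = 0.0462). Igf2, a growth factor, lay nearly as far from WT in both subgroups, with log2 differences of 1.52 in vehicle and 1.65 in EV libraries at levels between 0.616 and 1.34 CPM in Rag1-/- and 0.412, 0.237 and 0.232 in WT. Its WT levels were few reads, since 0.232 CPM of Rag1 in WT replicate 6 was 9 reads.

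**Figure D3:**
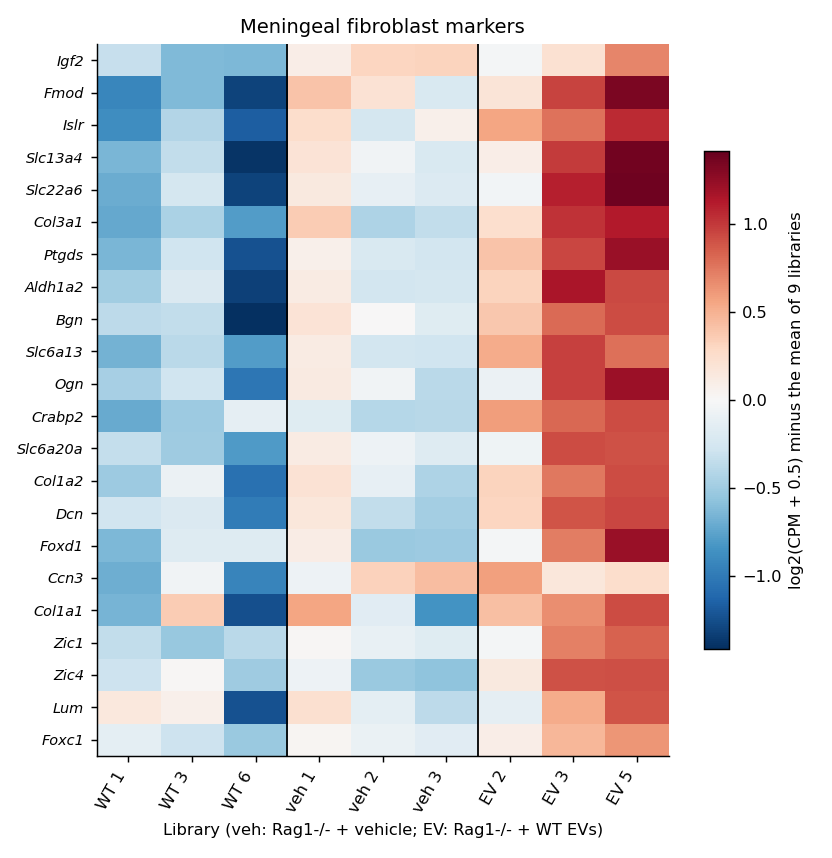
Level of the 22 meningeal fibroblast genes (rows) in each of the 9 libraries (columns), coloured by log2(CPM + 0.5) minus the gene's mean over the libraries, with vertical lines between WT, vehicle and EV libraries. EV replicates 3 and 5 were the darkest red for most genes and WT replicate 6 the darkest blue.

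Markers of other resident cell types had smaller medians. Of 18 oligodendrocyte genes, which make and maintain myelin, 3 lay above WT and none below, and 8 had an unadjusted p under 0.05, all higher. DESeq2 called 3 higher with all libraries and 0 without WT replicate 6. The median log2 difference was 0.29, and 0.28 without that library. Summed over the list the genotypes overlapped, at 1942 to 3460 CPM in WT and 2147 to 3698 in Rag1-/-. Cldn11, the claudin of myelin tight junctions, stood at 46.4, 37.8 and 36.5 CPM in WT and between 53.5 and 78.7 in Rag1-/- (median 59.5). Mag, a glycoprotein of the inner myelin layer, stood at 49.4, 41.7 and 33 CPM in WT and between 54.8 and 92 in Rag1-/- (median 62.2). In both, 1 EV library lay far above the rest of its genotype. Mbp, the major myelin protein, chosen after its values were seen, overlapped between the genotypes, with a log2 difference of -0.32 that was 0.00 without WT replicate 6. For 14 genes of oligodendrocyte precursors the median was 0.28, with 2 above and none below, and it was 0.15 without WT replicate 6.

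Astrocyte genes leaned the other way. Of 22 tested, 21 had a negative difference, 2 lay below WT and none above. An unadjusted p under 0.05 was found for 5, all lower, against 4136 of all 17948 genes, 2399 of them lower. Counted in both directions, the astrocyte share was no higher than that of all genes, while for lower genes alone it was higher. DESeq2 called none, and the median was -0.25 on the log2 scale. Summed over the list the level was 15238 to 17937 CPM in WT, 10272 to 11845 in vehicle libraries and 14948 to 15351 in EV libraries, so the distance from WT lay mainly in the vehicle libraries. The list median against WT was -0.46 for vehicle and -0.04 for EV libraries, and 9 members were higher in EV than in vehicle libraries in edgeR. Slc1a2, the main glutamate transporter of astrocytes and a gene near Rag1, stood at 10094, 8544 and 8727 CPM in WT and between 5814 and 8287 in Rag1-/-. Ppp1r3c, which directs phosphatase to glycogen, stood at 108, 85.1 and 105 CPM in WT and between 49 and 92.2 in Rag1-/- (median 66.4). Its differences from WT were -0.95 for vehicle and -0.21 for EV libraries, and the EV minus vehicle difference of 0.74 passed (edgeR adjusted p = 0.0215).

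Microglia, the resident macrophages of the brain, gave a median log2 difference of 0.00 over 23 genes, with none above and 1 below WT. That value pooled a median of -0.17 in vehicle and 0.15 in EV libraries against the same WT libraries, 3 members were higher in EV than in vehicle libraries in edgeR, and it was -0.15 without WT replicate 6. The vessel lists were alike in this, with -0.04 over 19 endothelial genes (-0.13 in vehicle, 0.11 in EVs, -0.17 without WT replicate 6) and -0.08 over 14 genes of pericytes and smooth muscle (-0.14, 0.13 and -0.19). Rgs5, a marker of pericytes, stood at 192, 125 and 141 CPM in WT and between 80.4 and 129 in Rag1-/- (median 85.4), a log2 difference of -0.71 with an overlap in 1 EV library. Blood markers had larger medians, which moved with single libraries. The 10 neutrophil genes summed to 3, 32.5 and 1.57 CPM in WT and 0.532 to 2.05 in Rag1-/-, and the 4 that could be tested had a median log2 difference of -3.34, or -0.96 without WT replicate 3. The 7 genes of red blood cells summed to 20.6, 76.8 and 85.2 in WT and 3.64 to 71.8 in Rag1-/-, and 5 had a median of -1.33, or -2.08 without vehicle replicate 1. For S100a9, a calcium-binding protein of neutrophils, the log2 difference of -3.64 became -1.59 without WT replicate 3, which held 7.21 CPM.

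Neuronal markers had small positive medians, which were lower with the outside-exon share as a covariate, and negative for upper-layer genes. That share was lowest in the vehicle libraries (6.54% to 6.90%), so its part and that of treatment cannot be told apart. Of 16 general neuronal genes, 13 had a positive difference, none lay above and 1 below WT, and the median was 0.24 on the log2 scale. It was 0.42 for vehicle and 0.04 for EV libraries against the same WT libraries, 0.15 without WT replicate 6 and 0.034 with that share as a covariate. Markers of deep-layer pyramidal neurons followed the same order, with a median of 0.24 over 23 genes, 0.44 for vehicle and -0.08 for EV libraries (0.30 without WT replicate 6, 0.14 with the covariate). Upper-layer genes had a median of 0.06 over 18, with 0.12 for vehicle and -0.01 for EV libraries (0.01 without WT replicate 6, -0.10 with the covariate). Interneuron genes had a median of 0.18 over 31, with 0.37 for vehicle and 0.10 for EV libraries (0.17 without WT replicate 6, 0.024 with the covariate). Of the interneuron genes 2 lay above and 2 below WT. Dlx5, a homeodomain factor of interneurons, stood at 1.06, 0.894 and 1.13 CPM in WT and between 1.67 and 2.45 in Rag1-/- (median 2.22), a log2 difference of 1.03. Among interneuron genes chosen after their values were seen, Sst, which encodes somatostatin, had a log2 difference of 0.75 with overlapping genotypes. Other members went the other way: 25 differences of the list were positive and 6 negative. DESeq2 called 3 interneuron genes higher and 2 lower with all libraries, and 1 in all without WT replicate 6. Among markers of neighbouring regions, 15 striatal genes had a median of 0.38 and 12 genes of the olfactory bulb and neuroblasts 0.45 (0.29 and 0.23 with the covariate), and the part of dissection was not tested.

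Granins and neuropeptides, the cargo and processing enzymes of dense-core vesicles, had the highest median of the neuronal lists with all libraries, but not without WT replicate 6. Over 24 genes it was 0.48 on the log2 scale, 0.29 without that library (striatal genes 0.34, olfactory 0.32) and 0.16 with the covariate. Of these genes 20 were positive, 2 lay above and none below, and 11 had an unadjusted p under 0.05, all higher. DESeq2 called 5 higher with all libraries and 0 without WT replicate 6. Pcsk2, which cleaves prohormones, stood at 248, 334 and 180 CPM in WT and between 349 and 463 in Rag1-/- (median 406). Chga, the granin that packs the vesicles, stood at 56.9, 62 and 35.4 CPM in WT and between 63.2 and 96.1 in Rag1-/- (median 89.3). WT replicate 6 was the lowest WT library for both.

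Synaptic and channel genes gave medians between 0.12 and 0.28, which were lower without WT replicate 6 and near 0 with the outside-exon share as a covariate. The 49 genes of excitatory synapses had a median log2 difference of 0.12, with none above and 4 below WT, the 39 of inhibitory synapses 0.21, and the 42 of vesicle release 0.20. The 38 potassium channel genes had a median of 0.23 with 3 above and none below, and the 23 sodium and calcium channel genes one of 0.28 with no separated member. Without WT replicate 6 the medians were 0.10 for excitatory synapses, 0.11 for inhibitory synapses, vesicle release and potassium channels and 0.17 for sodium and calcium channels. With the covariate they were -0.0063, -0.0011, -0.0151, 0.0245 and 0.071 in the order of the lists. Against the same WT libraries the medians of these 5 lists lay between 0.20 and 0.38 for vehicle and between -0.03 and 0.08 for EV libraries. Shank2, a scaffold of the postsynaptic density, was among those below, at 475, 441 and 602 CPM in WT and between 330 and 423 in Rag1-/- (median 381), a log2 difference of -0.41 that was -0.26 without WT replicate 6 and -0.18 with the covariate.

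Several single genes bear on kinase signalling and on synaptic machinery. Prkce, the epsilon isoform of protein kinase C, stood at 473, 515 and 430 CPM in WT and between 453 and 606 in Rag1-/- (median 568), a log2 difference of 0.21 that did not pass (edgeR adjusted p = 0.293) and was 0.045 with the outside-exon share as a covariate. Against the same WT libraries Prkce differed by 0.35 in vehicle libraries, which passed (edgeR adjusted p = 0.0391), and by 0.06 in EV libraries, which did not (edgeR adjusted p = 0.778). The vehicle value passed in 3 of 9 fits with a library left out, where edgeR's adjusted p ran from 0.00723 to 0.123. Nsf, the ATPase that recycles the fusion machinery of vesicles, stood at 604, 710 and 449 CPM in WT and between 552 and 876 in Rag1-/- (median 760), with a difference of 0.34 (edgeR adjusted p = 0.265). The genotypes overlapped for Prkce and Nsf. Gphn, the scaffold of inhibitory synapses, differed by 0.09 (edgeR adjusted p = 0.569), and the immediate early gene Fos by 0.41 (edgeR adjusted p = 0.525). With the outside-exon share as a covariate, the differences of Gphn, Nsf and Fos were -0.0306, -0.0108 and -0.0493. Camk2a, the calcium-dependent kinase of excitatory synapses, stood at 5480, 5514 and 6005 CPM in WT and between 3567 and 5840 in Rag1-/- (median 4348). Its genotype difference of -0.32 did not pass (edgeR adjusted p = 0.221), while the EV libraries were higher than the vehicle libraries by 0.45 (edgeR adjusted p = 0.0462).

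Among the 13 genes of the protein kinase C family the median was -0.09, with Prkcz, the atypical zeta isoform, as the only separated member. Prkcz stood at 286, 287 and 297 CPM in WT and between 231 and 256 in Rag1-/- (median 244), a log2 difference of -0.25. Its WT libraries were close together and above the highest Rag1-/- library. The 34 activity-regulated genes had a median of 0.23 with 1 above WT, and 29 genes tied to sociability had one of 0.15 with 2 below. With the covariate these medians were -0.0458 and 0.0039. Against the same WT libraries they were 0.37 and 0.20 for vehicle libraries and 0.00 and 0.03 for EV libraries.

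Genes of translation and respiration had negative medians that shrank without WT replicate 6. Of 81 cytosolic ribosomal protein genes, 75 had a negative difference, 6 lay below WT and none above, 31 had an unadjusted p under 0.05, all lower, DESeq2 called 13 lower, and the median was -0.27 on the log2 scale. The summed level was 9296, 8380 and 10862 CPM in WT, 6093 to 7093 in vehicle libraries and 7889 to 9700 in EV libraries. As with the astrocyte genes, the vehicle libraries lay farther from WT (median -0.49) than the EV libraries (-0.11), and 19 members were higher in EV than in vehicle libraries in edgeR. The median was -0.17 without WT replicate 6, where DESeq2 called 0 of these genes, and -0.0537 with the outside-exon share as a covariate. Rps25, of the small subunit, stood at 116, 98.4 and 142 CPM in WT and between 68.4 and 91.3 in Rag1-/- (median 86.5). Of 80 nuclear genes of oxidative phosphorylation, 10 lay below WT and none above, 12.5% against 3.63% of all genes, with a median of -0.10 that was -0.0653 without WT replicate 6 and -0.0445 with the covariate. Cox7a2, a subunit of cytochrome c oxidase, stood at 130, 113 and 149 CPM in WT and between 80.4 and 102 in Rag1-/- (median 96).

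The 11 mitochondrially encoded genes had a median of 0.23, with 0.03 in vehicle and 0.36 in EV libraries against the same WT libraries, 0.39 without WT replicate 6 and 0.50 with the covariate. A single member, mt-Nd6, had an unadjusted p under 0.05 and lay above WT. It stood at 108, 106 and 112 CPM in WT and between 158 and 448 in Rag1-/- (median 220). Its gene lies on the opposite strand from most others of the mitochondrial genome, so without strand its reads cannot be told from those of the other strand. Proteasome genes were split, with 1 above and 4 below WT of 37 and a median of 0.05.

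**Figure D4:**
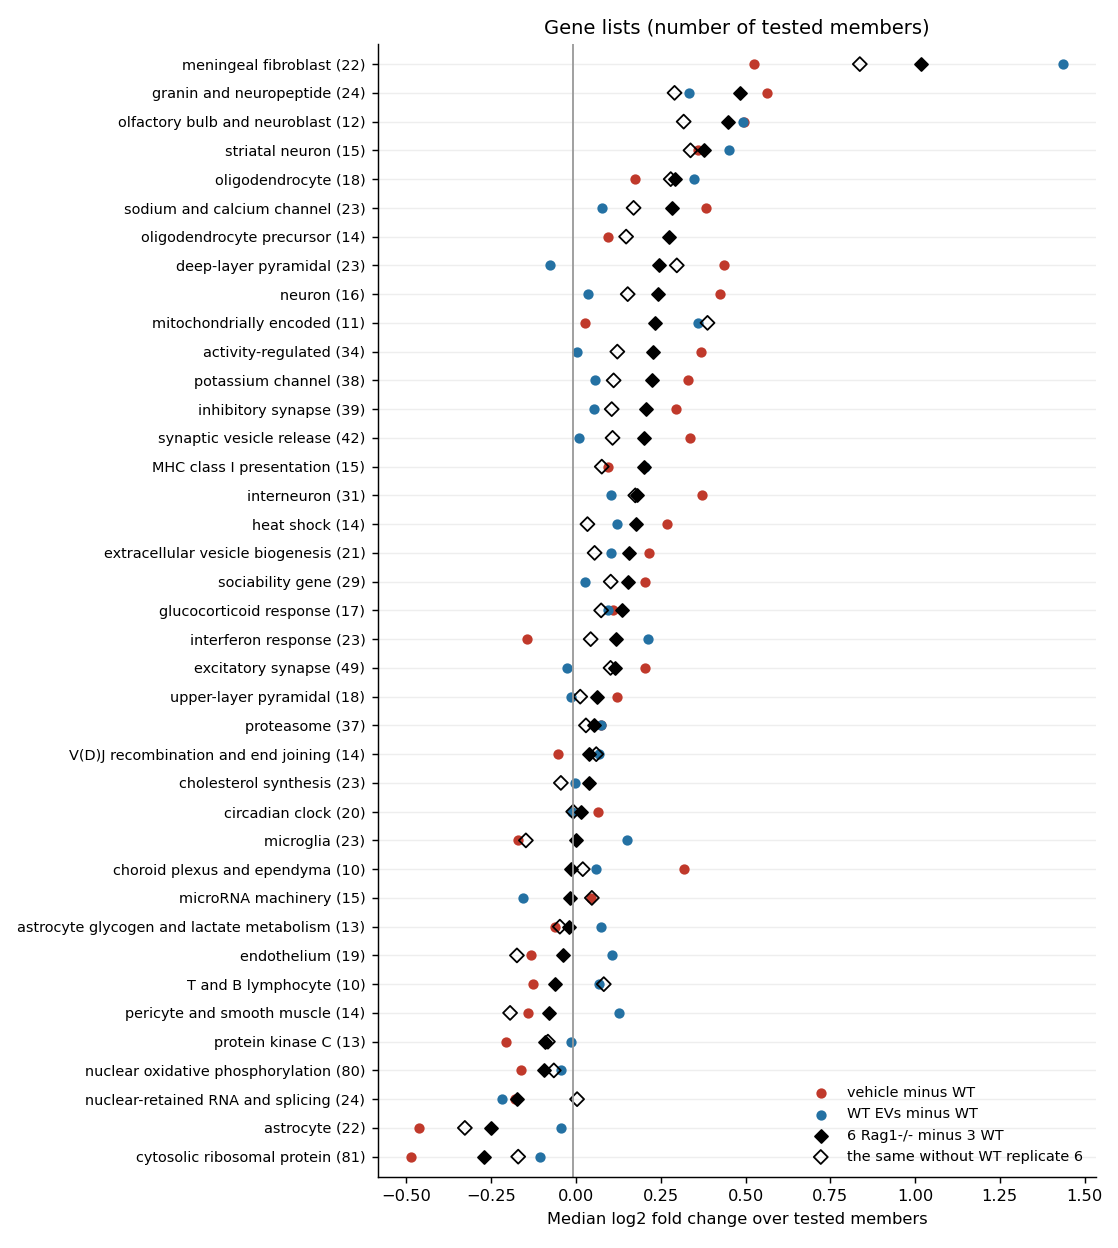
Median log2 difference from WT (x axis) over the tested members of each gene list (rows, number of members in parentheses), for the 6 Rag1-/- libraries with all WT libraries (filled diamonds) and without WT replicate 6 (open diamonds) and for vehicle (red) and EV libraries (blue). The grey line is the median of all genes, the blood cell lists and the genes near Rag1 are not drawn, and meningeal fibroblast genes lay highest at 1.02 and, without that library, 0.84.

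The immune and stress lists given here had small medians, with at most 1 separated gene in either direction. Of 23 interferon response genes 1 lay above WT: Stat2, a transcription factor of type I interferon signalling, at 12.5, 12.3 and 12.5 CPM in WT and between 15 and 17.1 in Rag1-/- (median 16). Of 15 genes of MHC class I presentation 1 lay above, H2-T23, which encodes a non-classical class I molecule, at 9.01, 10.7 and 8.62 CPM in WT and between 11.9 and 15.3 in Rag1-/-. The groups were apart for both genes, although their lists as a whole were not. The interferon median was 0.12 on the log2 scale, with -0.15 for vehicle and 0.21 for EV libraries against the same WT libraries. Of 14 heat shock genes 1 lay above and 1 below WT, with a median of 0.18 (0.03 without WT replicate 6). Of 17 genes of the glucocorticoid response 1 lay above and none below, with a median of 0.14 (0.07 without that library). None of 20 clock genes was separated and none had an unadjusted p under 0.05 in edgeR. Of 21 genes of vesicle biogenesis and 15 of the microRNA machinery, none was separated either. The microRNA machinery median was -0.02, with 0.04 for vehicle and -0.16 for EV libraries against the same WT libraries. In edgeR 2 of its members were lower in EV than in vehicle libraries.

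Genes beside Rag1 are inherited together with the modified locus and were therefore described as a group of their own. Of 96 tested within 10 Mb of it, 4 lay above WT and 8 below, 12.5% against 7.02% of the genes elsewhere. Within 5 Mb it was 2 above and 6 below of 45, and within 1 Mb Rag1 and Pamr1 were the separated genes among 11. Pamr1 (chromosome 2, 102550012 to 102643041) stood at 26.8, 26.4 and 19.5 CPM in WT and between 34.1 and 41.1 in Rag1-/- (median 37.8), a log2 difference of 0.64 that was 0.51 without WT replicate 6. Cd59b (chromosome 2, 104069849 to 104091187), a membrane inhibitor of complement lysis, stood at 0.50, 0.737 and 0.643 CPM in WT and between 0.088 and 0.319 in Rag1-/- (median 0.175). Its difference of -1.78 was -1.76 without WT replicate 6. These levels were few reads, since 0.232 CPM of Rag1 in WT replicate 6 was 9 reads, so the size of this difference is uncertain. Apip, an enzyme of methionine salvage, and Dnajc24, of diphthamide synthesis, had log2 differences of -0.46 and -0.45, which were -0.29 and -0.25 without WT replicate 6. Ext2, of heparan sulfate synthesis, had one of 0.28, or 0.21 without that library. Whether the flanking alleles of the 2 genotypes differ was not tested.

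**Figure D5:**
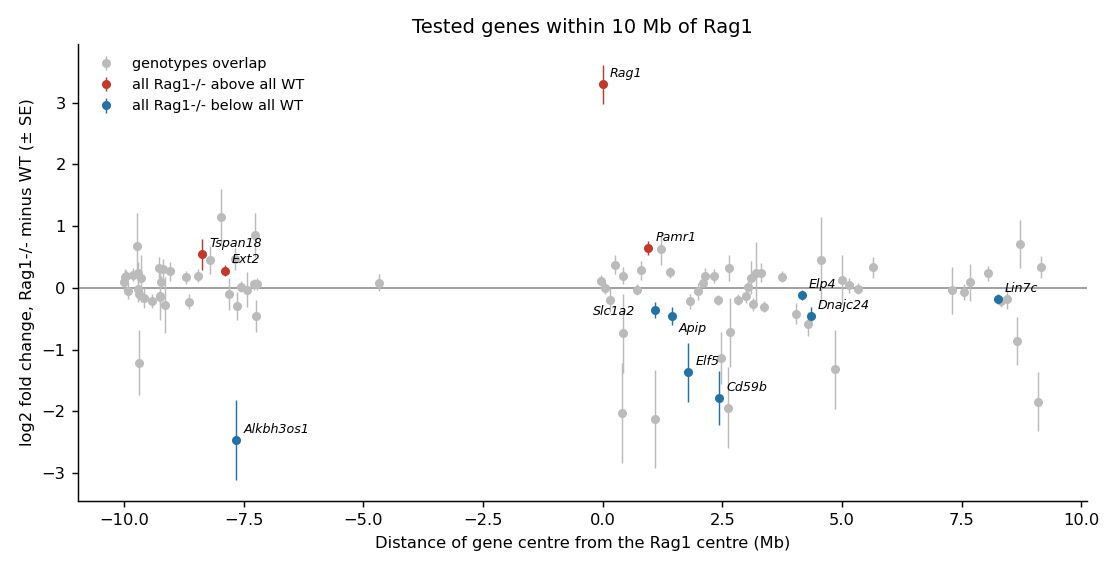
Log2 difference between Rag1-/- and WT (points, with SE bars, y axis) of the 96 tested genes against their distance from Rag1 in Mb (x axis). Rag1 stood highest at 3.29, and 4 genes lay above and 8 below all WT libraries.

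The Rag1-/- group was itself divided by treatment. Against the same 3 WT libraries, edgeR called 2871 genes (16%) in vehicle libraries, 1128 higher and 1743 lower, and 8 genes (0.0446%) in EV libraries, 7 higher and 1 lower. The vehicle count ran from 0 without vehicle replicate 2 or 3 to 6602 without WT replicate 3, and the EV count from 0 without EV replicate 5 or vehicle replicate 2 to 1537 without WT replicate 3. Between EV and vehicle libraries edgeR called 613 genes (3.42%), 390 higher and 223 lower with EVs, and 4143 had an unadjusted p under 0.05. This count went to 0 when EV replicate 5, vehicle replicate 2 or vehicle replicate 3 was left out, and to 2985 without WT replicate 6, which shared the estimate of the spread. Of the 613 genes, 15 were also separated between the genotypes. Slc6a13, a GABA and taurine transporter of the meninges chosen after its values were seen, was one of them, with log2 differences from WT of 0.52 in vehicle and 1.47 in EV libraries and an EV minus vehicle difference of 0.95 (edgeR adjusted p = 0.0295).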

How the data were processed

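Per the study's methods and the submitters' processing notes, libraries of total RNA made with a directional kit were sequenced as 75 bp pairs, demultiplexed with bcl2fastq 2.18.0.12, aligned to GRCm38 with STAR 2.7.5c and counted with HTSeq 0.11.1 at a minimum alignment quality of 10, without using strand. The deposited values are raw counts of reads per gene for each library, with no normalization by the authors, and 0 columns of per-sample values were left unused. Summary lines that name no gene (reads outside exons, ambiguous or not uniquely aligned) stayed out of library sizes and tests. Reads outside exons are given as a percent of reads in genes, ambiguous reads and reads outside exons. Of 56246 gene identifiers, 55230 (98.19%) matched GENCODE M21, which gave symbols, types and positions.

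Genes were kept by filterByExpr (minimum count 10, minimum total 15), scaled by TMM and tested with edgeR 4.0.16 (limma 3.58.1, R 4.3.3), a two-sided quasi-likelihood test with Benjamini-Hochberg adjustment over all 17948 genes. The fit held the 6 Rag1-/- libraries as 1 group and 3 WT libraries as the other, and a fit with 3 groups gave each Rag1-/- subgroup against the same WT libraries. DESeq2 1.42.0, limma-voom, other scalings and filters, a GC and length correction, the share outside exons as a covariate, the replicate number as a block and each library left out were alternatives. A threshold of 0.1, DESeq2 with each library left out and the fits of each Rag1-/- subgroup against WT with each library left out were added after seeing the data. Single values over libraries were compared with exact permutation tests (scipy 1.17.1), where 84 groupings allow no p below 0.0238. The scripts were tested on simulated data. Plots used Python 3.11.15 and matplotlib 3.10.9.

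The members and all 41 gene lists were chosen with earlier results of these data known. Named genes are Rag1, Rag2, Prkce, Gphn, Nsf, Camk2a and Fos, the 2 genes of each list with the smallest p (the rule allowed up to 4), the protein-coding genes of smallest p, up to 8 in either direction, and 8 within 10 Mb of Rag1. Up to 12 called and separated genes per direction and up to 6 per direction of the vesicle difference were also allowed. In the parts over all genes 3 predicted genes, Rik clones or genes with over 50% of exon bases shared with another gene were passed over. Genes named otherwise are said to have been chosen after their values were seen. Counting error alone is covered by read numbers, since reads carried no molecular identifiers. Some genes that these lists hold are not reported here.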

Additional observations from a re-analysis of the deposited data

Results flagged for a closer look

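In 9 sets of 6 Rag1-/- libraries and in 1 library measure, 1 library lay farther from the rest than Dixon's 95% critical value allows. Chance alone gives such a gap at a rate of about 0.05 per set. The number of sets examined is not stated here, so the number of gaps cannot be set against that rate. Gaps that share a library are also not independent of each other. EV replicate 2 was the highest for 5 genes: the myelin genes Mag at 92.0 CPM and Cldn11 at 78.7 CPM, the striatal markers Penk (proenkephalin) at 35.5 CPM and Ppp1r1b (the dopamine-regulated phosphatase inhibitor DARPP-32) at 54.5 CPM, and Cdhr1, of the olfactory bulb list, at 8.45 CPM. EV replicate 5 was the highest for the pericyte marker Rgs5 at 129 CPM, for the nuclear RNA Kcnq1ot1 at 50.4 CPM and for the share of reads outside exons at 11.2%. Vehicle replicate 3 had the highest Btaf1 at 65.7 CPM, below all WT libraries, and vehicle replicate 1 the highest Hbb-bt, an adult globin, at 4.84 CPM.

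EV and vehicle libraries differed in edgeR's test for Camk2a, higher with EVs by 0.45, and Ppp1r3c, by 0.74 on the log2 scale. Ptgds and Slc6a13, chosen after their values were seen, passed as well. The count of genes passing this test went from 613 to 0 without EV replicate 5, vehicle replicate 2 or vehicle replicate 3.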

How the results depend on the processing

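The count of genes passing the pooled genotype test was 1 in edgeR and stayed 1 with RLE scaling, GC and length correction, limma-voom and a fold threshold. It was 2 with a 1 CPM filter, with upper-quartile scaling and with the share outside exons as a covariate, 616 when the Rag1-/- value was the mean of the vehicle and EV groups in a 3-group fit, 721 with no filter, 1186 with DESeq2 and 477 at an adjusted p under 0.1. Leaving out each library gave 1 to 3062 in edgeR (3062 without WT replicate 3, 2 without vehicle replicate 3) and 29 to 3712 in DESeq2. Those DESeq2 counts were 29, 3712 and 654 without WT replicate 6, 3 and 1, 539, 448 and 595 without vehicle replicate 1, 2 and 3, and 687, 912 and 1908 without EV replicate 2, 3 and 5. For EVs minus vehicle the count of 613 became 2169 with DESeq2 and 0 to 2985 with a library left out (2985 without WT replicate 6, 0 without EV replicate 5, vehicle replicate 2 or vehicle replicate 3). Against WT, the vehicle count of 2871 became 0 to 6602 and the EV count of 8 became 0 to 1537 with a library left out, an alternative added after seeing the data. Separated genes, 1266, numbered 1407 to 5015 with a library left out, since fewer libraries have to lie apart, and separated and called genes 1 to 2325.

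The replicate numbers were shared by the groups but did not pair the libraries: correlations of same-numbered deviations were 0.160, 0.0172, 0.0870, 0.0795 and -0.153. With the replicate block, the genotype count was 1, the EV minus vehicle count 741, and Rag1 differed by 2.96 (2.99 with GC correction too), and the block changed no call of a named gene.

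Rag1 ranged from 2.80 to 3.72 over all alternatives. Some differences that had not passed turned sign. With the covariate they were Gphn at -0.0306, Nsf at -0.0108, Fos at -0.0493 and Per3 at 0.0108. With GC and length correction they were Dclre1c at 0.0210 and Psmc6 at 0.21. With the block they were Dbp at -0.0705, and with block and GC correction Dbp at -0.0999 and Psmc6 at 0.12. The cause was not tested. At 32 M reads in genes or more, values from under about 10 reads in a library are uncertain and allow no firm comparison. Those given above include Rag1 and Cd4 in WT replicate 6, and Cd59b and Igf2 in some libraries.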

Other observations

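DESeq2 without WT replicate 6 called 29 genes, of which 23 were also called with all libraries and 22 were separated between the genotypes. These genes were looked at after their values were seen. Those higher included the matrix genes Col6a1 and Col6a2, which encode collagen VI chains, and Ccn2, a matricellular growth factor. Col6a1 stood at 2.7, 4.2 and 8.5 CPM in WT and between 6.4 and 12.8 in Rag1-/-. Its genotypes overlapped through WT replicate 6, and it was not called with all libraries (DESeq2 adjusted p = 0.122). Ccn2 stood at 4.53, 4.24 and 7.20 CPM in WT and between 7.71 and 14.3 in Rag1-/- (median 10.6). Col6a2 stood at 2.80, 4.42 and 5.04 CPM in WT and between 5.29 and 11.1 in Rag1-/- (median 7.56). Trim32, a ubiquitin ligase, stood at 135, 150 and 103 CPM in WT and between 174 and 209 in Rag1-/- (median 194). Igsf8, an immunoglobulin superfamily protein that partners tetraspanins, stood at 83, 108 and 59.6 CPM in WT and between 127 and 149 in Rag1-/- (median 143).

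The genes lower in that fit included several where WT replicate 6 lay with the Rag1-/- libraries. Apold1, an endothelial early response gene, read 31.7 CPM in WT replicate 1, 22.5 in WT replicate 3, 11.5 in WT replicate 6 and between 9.18 and 14.7 in Rag1-/-. P2ry2, a nucleotide receptor, stood at 1.62, 1.18 and 0.515 CPM in WT and between 0.428 and 0.578 in Rag1-/-. Acer2, a ceramidase, stood at 11.5, 9.71 and 5.69 CPM in WT and between 5.04 and 8.08 in Rag1-/-. In each of these 3 the genotypes overlapped only through WT replicate 6.

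A single locus that the annotation classes as a long noncoding RNA, Gm26917 (chromosome 17, 39843013 to 39846341), took a large and uneven share of the reads. It stood at 5298, 9005 and 2679 CPM in WT, between 10243 and 36462 in Rag1-/- (median 24359), with vehicle libraries at 23108, 21153 and 10243 and EV libraries at 32201, 25610 and 36462. All 6 Rag1-/- libraries lay above WT, and the log2 difference was 2.13 (SE 0.423; edgeR adjusted p = 0.0969), or 1.79 without WT replicate 6. What the reads of this locus derive from was not tested.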
